A study of Gallus gallus with 8 samples.

Results

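The PAX genes encode transcription factors that bind DNA through a paired domain, and the 7 family members with a named row among the 24356 genes of the count table are described here. They were taken by name, as PAX followed by 1 digit. The pattern matched 6 rows in capitals (PAX1, PAX2, PAX5, PAX6, PAX7 and PAX9), and the row spelled Pax3 was added by ignoring case. PAX4 and PAX8 are not analysed here. All 7 members passed the filter on low counts.

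The libraries compared are 4 of Lmx1aE1-EGFP+ cells, labelled as otic placode cells, and 4 of Sox3U3-EGFP+ cells, labelled as epibranchial placode cells, all from chick embryos (Gallus gallus). Both groups carried an electroporated pTK-EGFP reporter plasmid, whose EGFP is driven by the Lmx1aE1 enhancer in the otic group and by the Sox3U3 enhancer in the epibranchial group. The plasmid was introduced in ovo from ss3 (somite stage 3) to ss5 according to the sample labels, or ss6 according to the design text, and embryos were collected at ss18 to ss21. Each library was made from 2000 EGFP+ cells isolated by fluorescence-activated cell sorting (FACS), from the dissected ear region in one place of the study's text and from whole heads in its methods, and neither group was sorted on a PAX gene. Each group is therefore a sample of the cells in which a transient reporter was bright enough to be sorted. The number of embryos behind a library was not given in the sources used here. The study compared the groups to obtain the transcriptional profiles of cells committed to the otic and the epibranchial fate.

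PAX proteins fall into subgroups that share domains and much of their DNA binding. PAX2, PAX5 and PAX8 form one subgroup: PAX2 is an early marker of the otic-epibranchial territory and is needed for ear development, and PAX5 is best known from the midbrain-hindbrain boundary and from B cells. PAX3 and PAX7 mark the neural plate border, the neural crest and the dorsal neural tube, and later muscle progenitors. PAX1 and PAX9 act in the pharyngeal pouches and the sclerotome, and PAX6 in the eye, the lens and olfactory placodes and the neural tube.

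Library totals ranged from 6559872 to 24173945 counts in the Lmx1aE1-EGFP group and from 9388922 to 45183366 counts in the Sox3U3-EGFP group. In each group 2 libraries (Lmx1aE1-EGFP 3 and 4, Sox3U3-EGFP 1 and 2) held over 15000000 counts and 2 held fewer, and these are called deeper and shallower. Between 945 and 6457 reads per library were assigned to the 7 PAX genes together. The genes that the enhancers are named for had the direction of the labels (log2 fold change 1.25 for LMX1A, edgeR adjusted p = 0.000143, and -0.76 for SOX3, adjusted p = 0.0131). LMX1A averaged 16.8 ± 1.34 CPM (the usual depth-normalised read count, here on totals scaled by TMM, the trimmed mean of M-values) in Lmx1aE1-EGFP+ cells, against 7.01 ± 1.03 CPM in Sox3U3-EGFP+ cells (SD, n = 4 each), and SOX3 averaged 7.29 ± 1.68 CPM and 12.3 ± 1.13 CPM in the same order of groups. The otic marker HMX3 was near 0 in both groups, at no more than 0.452 CPM in an Lmx1aE1-EGFP library and 0.420 CPM in a Sox3U3-EGFP library.

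Of the 7 PAX genes, 4 changed between the groups at an adjusted p under 0.05 in the edgeR quasi-likelihood fit, against 23.3% of the 16861 genes tested. PAX7 and PAX3 rose in Lmx1aE1-EGFP+ cells, where 12.1% of all tested genes were higher, and PAX2 and PAX5 fell, where 11.3% were lower. PAX7 and PAX3 were also past the fold-change threshold of 1.5 on the log2 scale that the study used, as were 3.18% of all tested genes (0.712% higher and 2.47% lower). PAX1, PAX6 and PAX9 did not pass the test. For the same 4 genes no Lmx1aE1-EGFP library lay within the range of the Sox3U3-EGFP ones, as was so for 26.0% of all tested genes. The members were chosen with earlier results of these data in view, so these shares describe the family and are not a test of it.

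**Figure D1:**
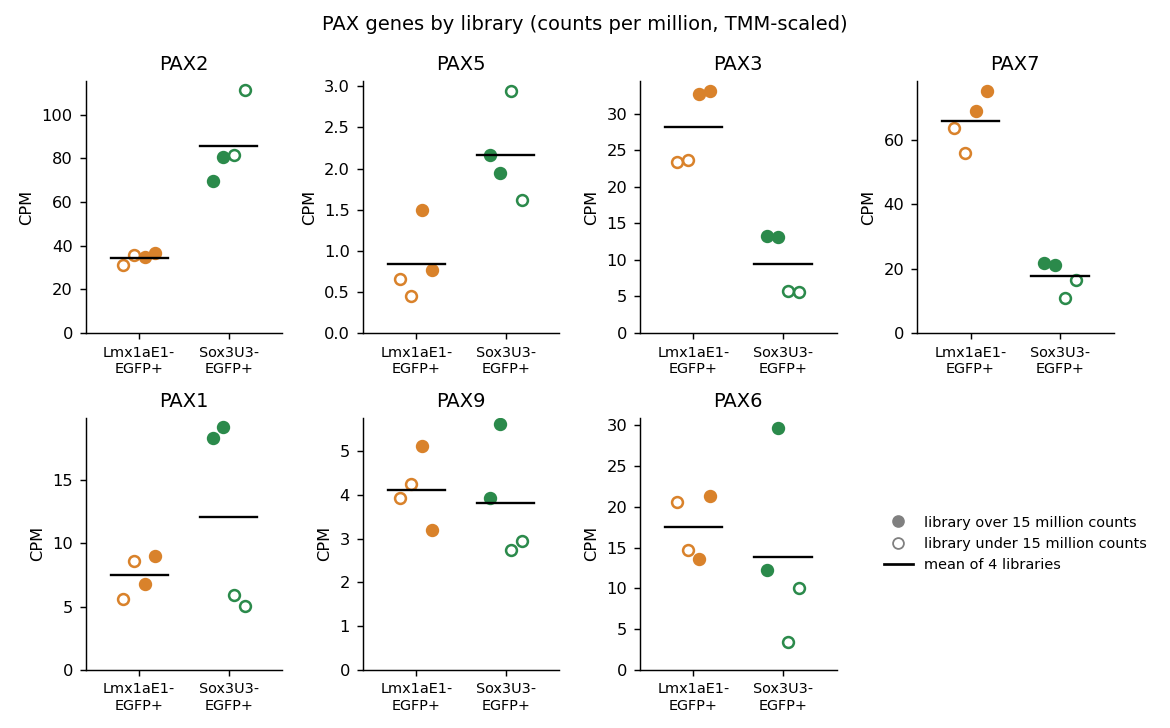
Level of each PAX gene in every library, in CPM (y axes start at 0 and differ by gene), with Lmx1aE1-EGFP+ libraries on the left and Sox3U3-EGFP+ libraries on the right of each panel, the deeper libraries filled and the shallower ones open, and a line at the mean of 4. The groups are apart for PAX2, PAX5, PAX3 and PAX7, and the filled Sox3U3-EGFP points lie above the open ones for PAX1, PAX3, PAX6, PAX7 and PAX9.

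PAX2 (ENSGALG00000005689), the member used as a marker of the shared otic and epibranchial progenitors, was detected in both populations and fell in the otic one. Lmx1aE1-EGFP libraries 1 to 4 held 31.3, 35.8, 34.6 and 36.4 CPM, and Sox3U3-EGFP libraries 1 to 4 held 69.4, 80.4, 81.4 and 111 CPM. The lowest Sox3U3-EGFP library was thus above the highest Lmx1aE1-EGFP library, and the Lmx1aE1-EGFP libraries lay closer together, with a coefficient of variation of 6.595% in Lmx1aE1-EGFP+ cells against 21.0% in Sox3U3-EGFP+ cells. The means were 34.5 ± 2.28 CPM in Lmx1aE1-EGFP+ cells, against 85.6 ± 18.0 CPM in Sox3U3-EGFP+ cells (SD, n = 4 each). The log2 fold change of Lmx1aE1-EGFP over Sox3U3-EGFP was -1.31 (SE, standard error, 0.14, edgeR adjusted p = 7.54e-06), a level 0.404 times that in Sox3U3-EGFP+ cells. By p-value PAX2 ranked 149 of the 16861 genes tested. In such bulk libraries, fewer cells with a transcript and less of it per cell cannot be told apart. The study's single-cell data come from earlier stages and from cells sorted on Pax2E1-EGFP, a reporter named for PAX2 itself. The study describes PAX2 as expressed in otic and epibranchial cells alike over those stages. Its branch analysis of these cells places PAX2 among the factors that segregate to the otic branch. The direction in these bulk libraries is the opposite, and the reason for this difference was not tested.

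The fold change of PAX2 held in every subset of libraries that was fitted. It was -1.05 (edgeR adjusted p = 0.000415) in the fit to the deeper libraries and -1.52 (adjusted p = 0.000966) in that to the shallower ones. With each library left out in turn it stayed between -1.40 and -1.15. It did not reach the threshold of 1.5 in the fit to all libraries.

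PAX5 (ENSGALG00000016431), the other member of the PAX2 subgroup in the table, was near the lower limit of detection. It had 5, 3, 36 and 17 reads in Lmx1aE1-EGFP libraries 1 to 4 and 99, 36, 28 and 16 reads in Sox3U3-EGFP libraries 1 to 4. On the CPM scale these were 0.655, 0.455, 1.495 and 0.768 in Lmx1aE1-EGFP+ cells, against 2.16, 1.95, 2.94 and 1.62 in Sox3U3-EGFP+ cells. The groups did not overlap, but the highest Lmx1aE1-EGFP library and the lowest Sox3U3-EGFP library were close together. The exact 95% Poisson interval was 1.05 to 2.07 CPM for Lmx1aE1-EGFP library 3 and 0.926 to 2.63 CPM for Sox3U3-EGFP library 4, which covers counting error only. Its log2 fold change was -1.24 (SE 0.43, edgeR adjusted p = 0.0444), and the call depended on which library was left out. It was kept without Lmx1aE1-EGFP library 3 (-1.72, edgeR adjusted p = 0.0212) or Sox3U3-EGFP library 4 (-1.34, adjusted p = 0.0423). The call was lost, with log2 fold changes of -1.29 to -1.07 and adjusted p between 0.0642 and 0.117, without Lmx1aE1-EGFP library 1, 2 or 4 or without Sox3U3-EGFP library 1, 2 or 3, and at a log2 fold change of -1.02 and an adjusted p of 0.154 when all libraries were thinned to the smallest total.

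Within a library the ratio of PAX2 to PAX5 reads does not depend on the scaling of that library. Its log2 value averaged 5.39 ± 0.65 in Lmx1aE1-EGFP+ cells, against 5.29 ± 0.56 in Sox3U3-EGFP+ cells (SD, n = 4 each). The difference of 0.10 was smaller than the spread of either group (two-sided exact permutation test, p = 0.829, adjusted p = 0.829 over 3 paralogue ratios).

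PAX7 (ENSGALG00000043204), a marker of the neural crest and dorsal neural tube, had the largest fold change of the family. Lmx1aE1-EGFP libraries 1 to 4 held 63.6, 55.8, 68.9 and 74.9 CPM, and Sox3U3-EGFP libraries 1 to 4 held 21.6, 21.2, 10.9 and 16.6 CPM. Every Lmx1aE1-EGFP library was thus well above every Sox3U3-EGFP library. The means were 65.8 ± 8.14 CPM in Lmx1aE1-EGFP+ cells, against 17.6 ± 5.00 CPM in Sox3U3-EGFP+ cells (SD, n = 4 each). PAX7 thus had a log2 fold change of 1.89 (SE 0.19, edgeR adjusted p = 2.61e-06), a 3.70-fold rise that ranked 106 by p-value among all tested genes. The deeper libraries alone gave 1.77 and the shallower ones 2.12, and fits with each library left out gave 1.74 to 2.01.

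PAX3 (ENSGALG00000030944), which acts with PAX7 at the neural plate border, rose as well. It had 23.3, 23.6, 32.6 and 33.1 CPM in Lmx1aE1-EGFP libraries 1 to 4 and 13.2, 13.2, 5.78 and 5.67 CPM in Sox3U3-EGFP libraries 1 to 4. The groups did not overlap, and in both of them the deeper libraries lay above the shallower ones. The means were 28.2 ± 5.42 CPM in Lmx1aE1-EGFP+ cells, against 9.46 ± 4.31 CPM in Sox3U3-EGFP+ cells (SD, n = 4 each). For PAX3 the log2 fold change was 1.54 (SE 0.28, edgeR adjusted p = 0.00119). This value is close to the fold-change threshold. The deeper libraries alone gave 1.34 (edgeR adjusted p = 0.000183) and the shallower ones 2.04 (adjusted p = 0.00146). PAX3 was under 1.5 with unscaled library sizes (1.49) and with limma-voom using quality weights per library (1.38). It was also under 1.5 without Lmx1aE1-EGFP library 3 or 4 (1.46 and 1.45) or Sox3U3-EGFP library 3 or 4 (1.39 and 1.37).

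A difference between the changes of PAX7 and PAX3 was not detected. The log2 ratio of PAX7 to PAX3 reads averaged 1.23 ± 0.16 in Lmx1aE1-EGFP+ cells, against 0.96 ± 0.40 in Sox3U3-EGFP+ cells (SD, n = 4 each). The difference of 0.27 was within the spread of the Sox3U3-EGFP libraries, of which library 4 had the highest ratio of all 8 at 1.54 (two-sided exact permutation test, p = 0.229, adjusted p = 0.343 over 3 paralogue ratios). With 4 libraries in each group the smallest p that this test can give is 0.0286.

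The shares of PAX7 and of PAX2 among the PAX reads did not overlap between the populations. PAX7 took 38.9% to 42.7% of all reads assigned to the 7 genes in the Lmx1aE1-EGFP libraries and 9.67% to 15.3% in the Sox3U3-EGFP libraries. PAX2 took 20.4% to 24.97% in the Lmx1aE1-EGFP libraries and 47.0% to 72.7% in the Sox3U3-EGFP libraries. The latter split by depth, with 49.3% and 47.0% in the deeper libraries 1 and 2 and 72.0% and 72.7% in the shallower 3 and 4. Both shares are parts of the same total, so they are not independent of each other. These are shares of reads, which also depend on transcript length, and say which member gave more reads within a library but not which had more transcripts. The summed level of the family overlapped between the groups, at 143 to 179 CPM in the Lmx1aE1-EGFP libraries and 113 to 171 CPM in the Sox3U3-EGFP libraries.

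**Figure D2:**
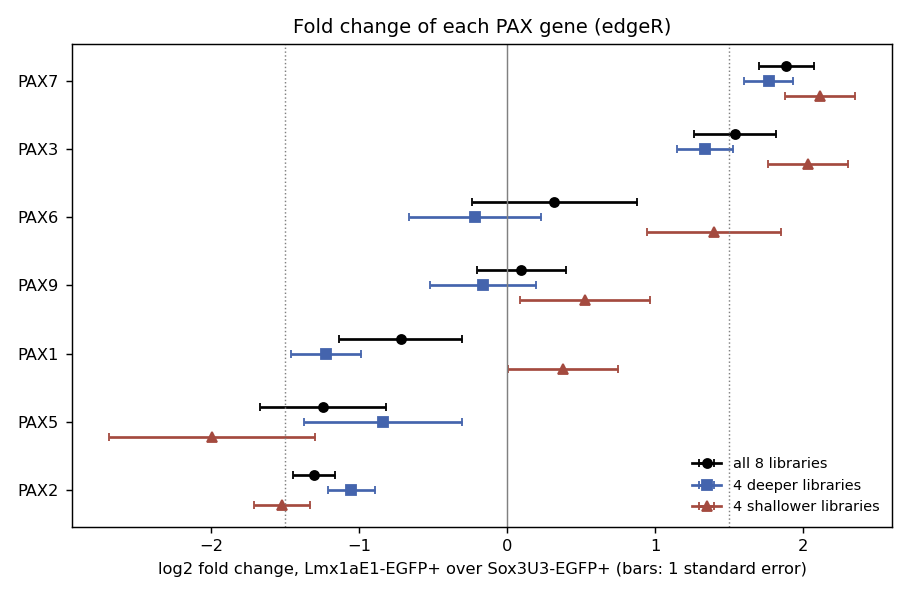
Log2 fold change of each PAX gene, Lmx1aE1-EGFP+ over Sox3U3-EGFP+ (x axis, bars of 1 standard error, dotted lines at 1.5 in each direction), from edgeR's fit to all 8 libraries, to the 4 deeper and to the 4 shallower ones. PAX7, PAX3, PAX2 and PAX5 keep their side of 0 in the 3 fits, whereas PAX1, PAX6 and PAX9 lie on different sides of 0 in the deeper and the shallower libraries.

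PAX1 (ENSGALG00000039040), a gene of the pharyngeal pouches and sclerotome, did not pass the test. Lmx1aE1-EGFP libraries 1 to 4 held 5.63, 8.64, 6.81 and 8.99 CPM, and Sox3U3-EGFP libraries 1 to 4 held 18.3, 19.2, 5.88 and 5.06 CPM. The Sox3U3-EGFP libraries split by depth, the deeper ones lying above and the shallower ones within or below the range of the Lmx1aE1-EGFP libraries. The log2 fold change over all libraries was -0.72 (SE 0.42, 95% interval -1.54 to 0.10, edgeR adjusted p = 0.249). The deeper libraries alone gave -1.22 (edgeR adjusted p = 0.00243) and the shallower ones 0.38 (adjusted p = 0.533). The difference between these fits did not pass an interaction test over all genes (edgeR adjusted p = 0.9997, unadjusted p = 0.00122). Without Sox3U3-EGFP library 4 the fold change was -0.96, with an adjusted p of 0.0496.

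PAX9 (ENSGALG00000010114), which acts beside PAX1 in the same tissues, had 3.93, 4.24, 5.11 and 3.21 CPM in Lmx1aE1-EGFP libraries 1 to 4. Sox3U3-EGFP libraries 1 to 4 held 3.93, 5.62, 2.73 and 2.93 CPM, so that the groups overlapped throughout. Its log2 fold change was 0.10 (SE 0.30, 95% interval -0.49 to 0.68, edgeR adjusted p = 0.848). The log2 ratio of PAX1 to PAX9 reads averaged 0.85 ± 0.49 in Lmx1aE1-EGFP+ cells, against 1.46 ± 0.65 in Sox3U3-EGFP+ cells (SD, n = 4 each), a difference of -0.61 that was not past the spread of the libraries (two-sided exact permutation test, p = 0.200, adjusted p = 0.343).

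PAX6 (ENSGALG00000012123), the eye and lens regulator, varied more within the epibranchial group than any other member. It had 20.6, 14.7, 13.5 and 21.3 CPM in Lmx1aE1-EGFP libraries 1 to 4 and 12.2, 29.6, 3.36 and 10.02 CPM in Sox3U3-EGFP libraries 1 to 4. Its coefficient of variation was 22.7% among Lmx1aE1-EGFP libraries and 81.1% among Sox3U3-EGFP libraries, and the groups overlapped. Its log2 fold change was 0.32 (SE 0.56, 95% interval -0.77 to 1.41, edgeR adjusted p = 0.728). With single libraries left out it ran from 0.024 to 1.002 (the highest without Sox3U3-EGFP library 2), and the fit within the deeper libraries gave -0.22. This interval does not show that PAX6 is equal in the populations.

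Depth class moved with several members among the Sox3U3-EGFP libraries. The mean of the deeper over that of the shallower Sox3U3-EGFP libraries was 3.43 for PAX1, 3.13 for PAX6, 2.31 for PAX3, 1.69 for PAX9 and 1.56 for PAX7, against 0.900 for PAX5 and 0.778 for PAX2. Compared within the Sox3U3-EGFP group, a test chosen after the data were seen, PAX1 and PAX3 passed (log2 fold change of deeper over shallower 1.78 and 1.20, edgeR adjusted p = 0.0114 and 0.0197) and the other 5 members did not, against 0.747% of all tested genes that passed it. Among the Lmx1aE1-EGFP libraries the deeper mean was also higher for PAX3 (32.9 against 23.5 CPM), PAX7 (71.9 against 59.7 CPM) and PAX5 (1.13 against 0.555 CPM). The classes were closer there for PAX1 (7.90 against 7.13 CPM), PAX2 (35.5 against 33.5 CPM), PAX6 (17.4 against 17.6 CPM) and PAX9 (4.16 against 4.09 CPM). The labels name no batch, so what else differs between the depth classes was not tested. The calls of PAX2, PAX3 and PAX7 held within both classes.

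The neural crest list holds 18 genes that act around PAX3 and PAX7, of which 16 were tested. Of these, 11 rose in Lmx1aE1-EGFP+ cells, 1 fell and 4 did not pass the test, and 8 of the 11 were past both thresholds. Of the 16, 75% passed, against 23.3% of all genes tested. The median log2 fold change was 1.79, against -0.04 over all genes tested. FOXD3, a winged-helix factor of early crest, averaged 63.8 ± 3.69 CPM in Lmx1aE1-EGFP+ cells, against 6.13 ± 2.84 CPM in Sox3U3-EGFP+ cells, and SOX10, a SoxE factor of both crest and otic cells, averaged 789 ± 110 CPM and 176 ± 24.3 CPM in the same order (SD, n = 4 each). TFAP2B, the nuclear receptor RXRG, the endothelin receptor EDNRB and ZIC1 rose by 1.92, 2.38, 2.40 and 1.82 on the log2 scale. The gene that fell was SOX9 (log2 fold change -0.52), and SNAI1, MYB, MSX1 and MSX2 were those that did not pass. Lists written around the PAX genes overlap in a few names, and genes outside the naming rule, such as those of small counts, were named after their values were seen.

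The summed level of the crest list ran from 2474 to 2567 CPM in Lmx1aE1-EGFP libraries and from 1000.4 to 1079 CPM in Sox3U3-EGFP libraries. Much of it came from SOX10 and from ID2. ID2 averaged 608 CPM in Lmx1aE1-EGFP+ cells and 447 CPM in Sox3U3-EGFP+ cells (log2 fold change 0.44). The log2 fold change of PAX7, 1.89, was near the median fold change of the list, 1.79. Relative to the list sum PAX7 was higher in Lmx1aE1-EGFP+ cells. The log2 ratio averaged -5.26 ± 0.17 there and -5.95 ± 0.46 in Sox3U3-EGFP+ cells (SD, n = 4 each), a difference of 0.69 with no overlap (two-sided exact permutation test, p = 0.0286, adjusted p = 0.0457 over 8 ratios of a member to a list). For PAX3 the difference was 0.42 (p = 0.286, adjusted p = 0.381, exact permutation test) and the groups overlapped. A list sum weighs each gene by its reads, and 5 of the 8 ratios to such sums passed. All 5 had the smallest p that this test can give, 0.0286, so their adjusted p depends on how many of the 8 reached it. They are not independent, as PAX2 was set against both the otic and the epibranchial sum, and PAX1 and PAX9 against the same sum. With the median log2 CPM of the list's genes within each library in place of the sum, none of the 8 passed. The difference for PAX7 was then 0.54 (adjusted p = 0.343, exact permutation test). This list median is a level and not the median fold change. Crest markers thus moved with PAX7 and PAX3, and their part in these changes was not tested.

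**Figure D3:**
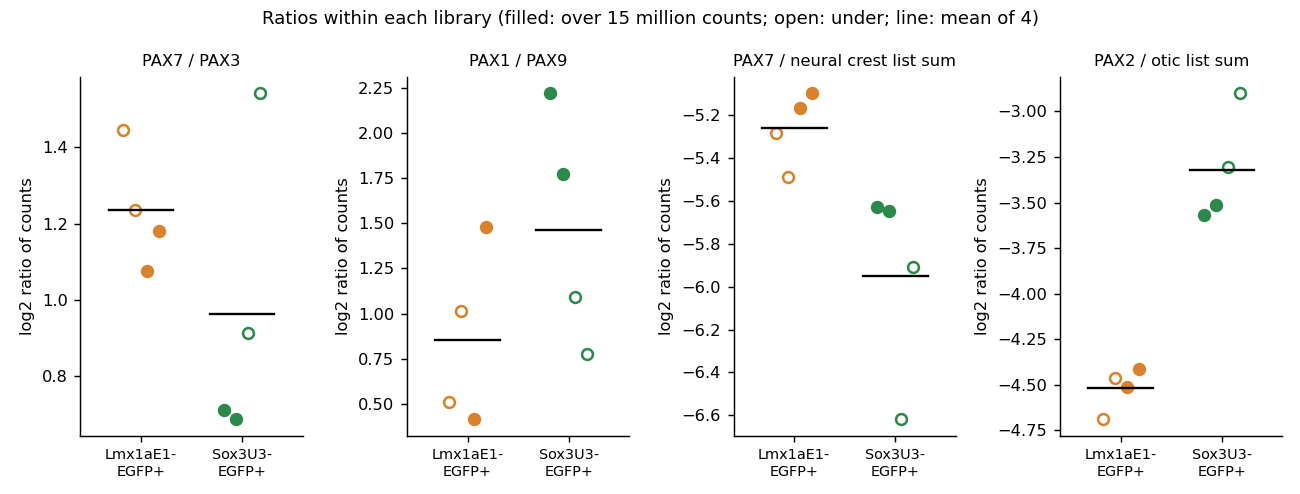
Log2 ratios of reads within each library (y axes do not start at 0), for PAX7 over PAX3, PAX1 over PAX9, PAX7 over the summed neural crest list and PAX2 over the summed otic list, with Lmx1aE1-EGFP+ libraries on the left, deeper libraries filled, shallower ones open and a line at the mean of 4. The groups overlap in the ratios of paralogues and are apart in the ratios to the list sums.

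The otic list holds genes that act with or downstream of PAX2 in the ear. Of its 14 tested genes 4 rose in Lmx1aE1-EGFP+ cells (SOX8, LMX1A, ZBTB16 and DLX5), 1 fell (GATA3) and 9 did not pass, with a median log2 fold change of -0.22. The share that passed was 35.7%, against 23.3% of all genes tested. SOX8, the SoxE factor at the centre of the study, averaged 75.0 ± 17.1 CPM in Lmx1aE1-EGFP+ cells, against 20.3 ± 6.42 CPM in Sox3U3-EGFP+ cells (SD, n = 4 each). GATA3, a zinc-finger factor of the ear and of the pharyngeal ectoderm, averaged 34.3 ± 4.81 CPM and 171 ± 22.7 CPM in the same order, the direction of PAX2. The list sum overlapped between the groups, at 777 to 810 CPM in the Lmx1aE1-EGFP libraries and 806 to 921 CPM in the Sox3U3-EGFP libraries. Relative to this sum PAX2 was lower in Lmx1aE1-EGFP+ cells (log2 difference -1.20, p = 0.0286, adjusted p = 0.0457, two-sided exact permutation test). This ratio largely repeats the log2 fold change of PAX2 itself, -1.31. With the list's median level the difference was -2.23 (adjusted p = 0.229, exact permutation test).

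The epibranchial list was tested with 8 genes, of which 5 fell in Lmx1aE1-EGFP+ cells, 1 rose and 2 did not pass. The share that passed was 75%, against 23.3% of all genes tested, and the median log2 fold change was -0.65. ISL1, NELL1 and TFAP2E were past both thresholds with log2 fold changes of -2.30, -2.04 and -2.05, and SOX3 and EYA2 fell by less. The gene that rose was the Wnt effector LEF1, with 203 ± 10.4 CPM in Lmx1aE1-EGFP+ cells, against 50.7 ± 10.7 CPM in Sox3U3-EGFP+ cells (SD, n = 4 each). The sum of this list, to which LEF1 contributes, overlapped between the groups. It was 328 to 370 CPM in the Lmx1aE1-EGFP libraries and 327 to 388 CPM in the Sox3U3-EGFP libraries. The ratio of PAX2 to this sum therefore largely repeats the change of PAX2 itself. Its log2 value was lower in Lmx1aE1-EGFP+ cells by 1.21 (difference -1.21, adjusted p = 0.0457, exact permutation test). With the list's median level (log2 CPM within each library) the sign turned, to 0.33 (adjusted p = 0.555, exact permutation test). PAX2 itself fell by more than the median fold change of the list, at -1.31 against -0.65.

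EYA and DACH proteins are co-regulators that act beside PAX factors in placodes. Of the 9 tested genes of this network 3 fell in Lmx1aE1-EGFP+ cells (EYA2 and EYA4 among them), 2 rose (SIX2 and DACH2) and 4 did not pass. The share that passed was 55.6%, against 23.3% of all genes tested. None was past both thresholds, and the median log2 fold change was -0.32. EYA2 averaged 50.7 ± 3.47 CPM in Lmx1aE1-EGFP+ cells, against 73.5 ± 3.83 CPM in Sox3U3-EGFP+ cells, and EYA4 averaged 15.1 ± 2.98 CPM and 26.6 ± 3.48 CPM in the same order (SD, n = 4 each). Their log2 fold changes of -0.53 and -0.84 had the sign of that of PAX2 and were smaller. Of 10 tested genes for proteins that bind PAX factors or carry their activity to chromatin, 4 rose (KMT2D, WDR5, ASH2L and TLE3) and none fell, with log2 fold changes between 0.70 and 0.80 and a list median of 0.42. The share that passed was 40%, against 23.3% of all genes tested, and without Lmx1aE1-EGFP library 1, 2 of the 10 passed. PAXIP1 and PAXBP1, which are named for binding PAX proteins, were at 0.40 each and did not pass.

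Around PAX1 and PAX9, the pharyngeal endoderm list had 11 tested genes, of which 6 fell in Lmx1aE1-EGFP+ cells and none rose. The other 5, SHH, FOXA1 and HHEX among them, did not pass. The share that passed was 54.5%, against 23.3% of all genes tested, and the median log2 fold change was -1.61. The adhesion gene EPCAM averaged 156 ± 26.4 CPM in Lmx1aE1-EGFP+ cells, against 722 ± 53.2 CPM in Sox3U3-EGFP+ cells, and RIPPLY3, a transcriptional co-repressor of the pharynx, 25.5 ± 13.01 CPM and 205 ± 41.3 CPM in the same order (SD, n = 4 each). NKX2-6 fell by 4.07 on the log2 scale, and NKX2-3 and FOXA2 by 2.69 and 1.61, both at under 2 CPM on average in either group. The summed level of the list was 178 to 264 CPM in the Lmx1aE1-EGFP libraries and 906 to 1050.2 CPM in the Sox3U3-EGFP libraries. Most of it came from RIPPLY3 and from EPCAM, which other epithelia express too. Relative to the list sum PAX9 was higher in Lmx1aE1-EGFP+ cells by 2.46 on the log2 scale and PAX1 by 1.85 (adjusted p = 0.0457 each, two-sided exact permutation test). With the list's median level these differences were 0.89 (adjusted p = 0.343) and 0.29 (adjusted p = 0.657, exact permutation test). PAX9 and PAX1 themselves did not pass the test (log2 fold change 0.10 and -0.72), while the sum was lower in every Lmx1aE1-EGFP library. Their higher ratios to the sum thus do not show a rise of either gene.

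Of 8 tested neural tube genes 1 rose (LMX1B, log2 fold change 0.61, adjusted p = 0.0462 from edgeR) and none fell, with a median of 0.18, and the roof plate gene WNT1 was at 0.80 (adjusted p = 0.122). The share that passed was 12.5%, against 23.3% of all genes tested. SOX1, SOX21, OLIG2, NKX6-1, EN1 and EN2 did not pass the filter and were under 1 CPM in every library. The call of LMX1B was lost with unscaled library sizes and without Lmx1aE1-EGFP library 1, 2 or 3 or Sox3U3-EGFP library 3 or 4. Of 10 tested somite and muscle genes 1 rose (PRRX1, 0.78) and 1 fell (MYF6, -1.30), 2 of 10 being no larger a share than the 23.3% of all genes. Without Lmx1aE1-EGFP library 2 or Sox3U3-EGFP library 1, 1 of them passed. Of 9 lens and eye genes 2 rose (CRYAB and MAFA) and 1 fell (OTX2), a share of 33.3% against 23.3% of all genes tested. Without Lmx1aE1-EGFP library 1 or 2 or Sox3U3-EGFP library 1 or 2 only 1 of the 9 passed. CRYAB averaged 30.8 ± 7.79 CPM in Lmx1aE1-EGFP+ cells, against 8.25 ± 4.41 CPM in Sox3U3-EGFP+ cells (SD, n = 4 each). The log2 ratios of PAX6 to the neural tube and lens sums differed by 0.59 and 0.19 between the groups, neither past the test (adjusted p = 0.588 and 0.800, exact permutation test). Of 6 tested kidney genes, a tissue in which PAX2 acts, 4 fell (EMX2, SALL1, WT1 and OSR1) and 1 rose (RET). The share that passed was 83.3%, against 23.3% of all genes tested. EMX2, WT1 and OSR1 were low, at 1.08, 3.70 and 5.03 CPM on average in Sox3U3-EGFP+ cells and less in Lmx1aE1-EGFP+ cells. Without Lmx1aE1-EGFP library 3 or Sox3U3-EGFP library 2, 3 of the 6 passed.

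**Figure D4:**
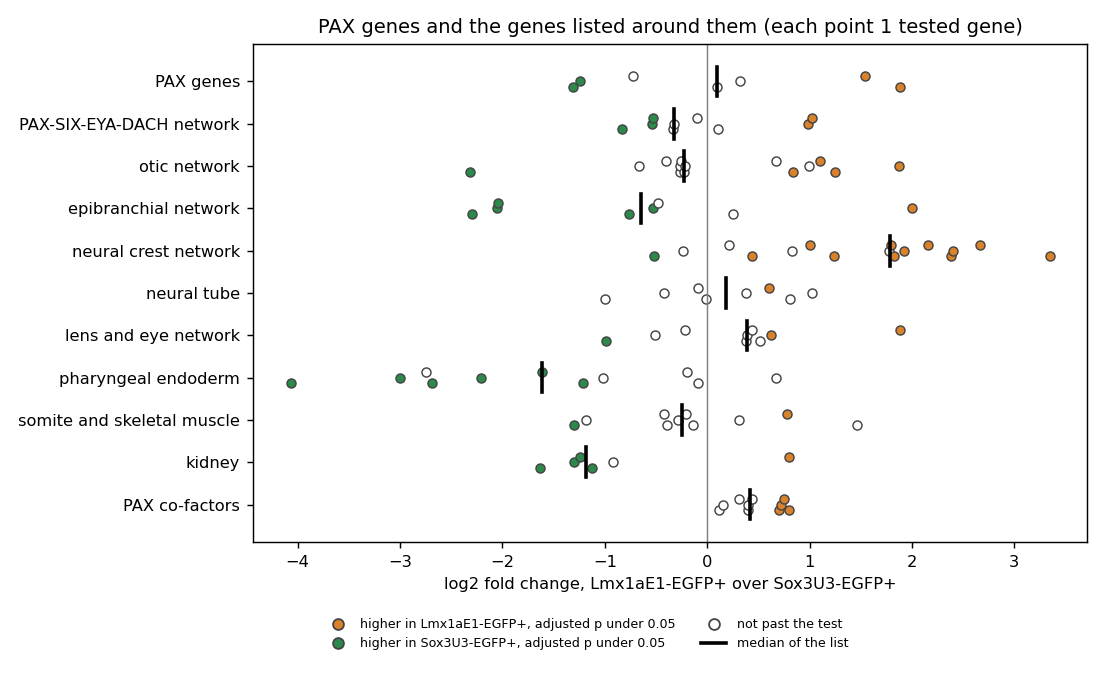
Log2 fold change, Lmx1aE1-EGFP+ over Sox3U3-EGFP+ (x axis), of the 7 PAX genes in the top row and of the tested genes of each list below, with genes past an adjusted p of 0.05 filled and a bar at the median. The median of the neural crest list is at 1.79 and that of the pharyngeal endoderm list at -1.61, with PAX7 and PAX3 at the high end and PAX2 and PAX5 at the low end of their own row.

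Genes whose level followed a PAX gene most closely over the 8 libraries were looked up among 11385 named genes, as a description. For genes that differ between the groups, such a likeness reflects the groups as well as the single libraries. The 5 most like PAX2 were WNT11, AGR2, USH1C, KLHL32 and MYO1E (Pearson r of log2 CPM 0.99 each). WNT11 is a Wnt ligand of the non-canonical branch, USH1C encodes a scaffold of sensory hair bundles and MYO1E a membrane myosin, and all 5 fell in Lmx1aE1-EGFP+ cells. WNT11 averaged 8.26 CPM in Lmx1aE1-EGFP+ cells, against 39.8 CPM in Sox3U3-EGFP+ cells, and USH1C averaged 17.0 CPM and 41.2 CPM in the same order. The 5 most like PAX7 were ADAM33 (r = 0.99), MRPS34, HSPG2, ZEB2 and MCL1 (r = 0.98 each), all of which rose. ZEB2, a repressor of epithelial genes in migrating crest, had 203 CPM in Lmx1aE1-EGFP+ cells, against 68.7 CPM in Sox3U3-EGFP+ cells. PAX3 was followed by C10orf71 and ZNF609 (r = 0.99 each) and PAX5 by FAM20B (0.99) and JPH1 (0.98). PAX1 was followed by the matrix proteoglycan DCN (0.99), PAX6 by UGP2 (0.96), and PAX9 by RUNX1T1 (0.95) and PIM1 (0.93), none of which passed the test between the groups.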

How the data were processed

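RNA of 4 Lmx1aE1-EGFP+ and 4 Sox3U3-EGFP+ libraries was sequenced as 75 bp paired-end reads. The authors trimmed the reads (Trim Galore, per the labels), ran NF-core RNAseq at its default settings (STAR aligner, galGal6 genome) and deposited raw whole-number counts per Ensembl gene from featureCounts. The strand setting was not given in the sources used here. The spans of PAX2 and PAX7 overlap those of 1 and 2 long non-coding RNA genes in RefSeq's GRCg7b annotation. Whether their exons overlap was not examined, so it is not known whether reads of these genes are mixed. Of 24356 rows, 13855 carry a name. No genome of the files' build and no gene lengths were used, so levels are not compared between genes.

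Genes were filtered with filterByExpr (16861 left), scaled by TMM and tested with edgeR 4.0.16 (robust quasi-likelihood, R 4.3.3) on group alone. Gene p-values were Benjamini-Hochberg adjusted over all genes tested, and those of ratios over their family. Standard errors come from the fold change and F statistic. The 95% intervals of fold changes use these with a normal quantile, so they are narrower than the quasi-likelihood F test would give. A prior count of 2 was used for log2 CPM and ratios add 0.5 to each count. Single values were compared by two-sided exact permutation over 70 assignments. Alternatives were RLE factors, unscaled totals, no filter, a minimum of 10 counts per library and DESeq2 1.42.0 with and without the filter. Others were limma-voom with quality weights per library (limma 3.58.1), the replicate number or depth class as a block, and thinning. Each depth class was also fitted alone and each library left out. The last were an added count of 1, a prior count of 0.5, list medians and a log2 fold change over 1. The interaction with depth class was added after the data were seen. The methods were also run on simulated counts, drawn from the means, totals and dispersions of these data with no depth-class effect. That run says nothing about such an effect in these libraries. The lowest chi-square per degree of freedom over 28 pairs of libraries was 3.60, so no pair differed by sampling noise alone.

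The members and lists were chosen with earlier results of these data known. All PAX rows are named, then from each list up to 6 genes past both thresholds by p-value, or else the 2 with the smallest p, and the 5 (PAX2, PAX7) or 2 genes most like a member with a mean of at least 1 CPM. Some genes that this rule picks are not reported here. P-values measure the spread between these libraries. The planned levels per coding length were not computed, as no lengths were given.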

Additional observations from a re-analysis of the deposited data

Results flagged for a closer look

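In 56 groups of 4 libraries (members, ratios and list sums), 2 held a library far from the others by the ratio of its gap to the range of the group, where chance gives about 1 in 20. The summed neural crest list was lowest in Sox3U3-EGFP library 4, at 1000.4 CPM against 1066 to 1079 CPM in the other 3 (ratio 0.8293). The summed pharyngeal endoderm list was highest in Lmx1aE1-EGFP library 4, at 264 CPM against 178 to 186 CPM in the other 3 (ratio 0.900). None of the 14 groups of single PAX genes held such a library.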

How the results depend on the processing

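PAX2, PAX3 and PAX7 kept their direction and their call under all 12 other fits and with each library left out. Their log2 fold changes ran from -1.52 to -1.05 for PAX2, from 1.34 to 2.04 for PAX3 and from 1.77 to 2.12 for PAX7, and without single libraries from -1.40 to -1.15, from 1.37 to 1.75 and from 1.74 to 2.01. Between 3 and 5 of the 7 members passed. The number past both thresholds, 2, was between 1 and 3. PAX5 was lost with no filter (adjusted p = 0.0639) and within the deeper (-0.84, adjusted p = 0.369) and shallower (-1.99, adjusted p = 0.0839) libraries, and it does not enter the fit to genes with at least 10 counts in every library. PAX1 reversed to 0.38 within the shallower libraries. Within the deeper libraries PAX6 reversed to -0.22 and PAX9 to -0.16, and PAX9, between -0.046 and 0.34 without single libraries, was at -0.046, -0.016 and -0.00091 without Lmx1aE1-EGFP library 3 and Sox3U3-EGFP libraries 3 and 4. The cause was not tested.

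Of the 99 distinct genes tested from the lists 48 passed (48.5%, against 23.3% of all genes), between 39 and 49 without single libraries and 31 with a log2 fold change over 1, which is stricter by construction. As the lists were chosen with earlier results of these data known, this share describes them and is not a test. The ratios to list sums that passed were 5, and 0 with list medians, where that of PAX2 to the epibranchial list reversed to 0.33. Over all genes 2033 were higher and 1904 lower, against 1308 and 1068 within the deeper and 1155 and 1064 within the shallower libraries, which hold fewer samples.

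No pairing by replicate number was seen: the deviations of same-numbered libraries correlated between -0.23 and 0.05, and 1 of 4 correlated best with its own number. The deeper libraries are Lmx1aE1-EGFP 3 and 4 but Sox3U3-EGFP 1 and 2. Same-numbered libraries thus differ in depth class, and this check cannot exclude a pairing. With the replicate number as a block the log2 fold changes were -1.29 for PAX2, 1.64 for PAX3 and 1.93 for PAX7, PAX5 was at -1.38 (adjusted p = 0.0544), and 3 members passed. The block also ended the call of LMX1B and the 3 calls of the lens and eye list. PAX5 had 3 to 99 reads per library.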
